A study of Mus musculus with 2 samples.

Results

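The acute-phase serum amyloid and orosomucoid genes are 9 genes chosen by name, Saa1, Saa2, Saa3, Saa4, Orm1, Orm2, Lcn2, Itih3 and Itih4. They were looked up by symbol among the 31053 genes listed in 2 single-cell RNA libraries, and each of the 9 was listed once. Both libraries hold YFP-positive liver cells of mice in which Cre removes floxed alleles of the Rb family (Rb1, Rbl1 and Rbl2), the triple knockout model of hepatocellular carcinoma (HCC). One library came from macroscopic lesions, for which the sources used here give no number of mice, and the other from early lesions pooled from 3 mice. Both groups carried the recombined alleles and were untreated, and livers or lesions were digested with enzymes and sorted for YFP, which marks cells in which Cre has acted. The driver of Cre and the ages of the mice are not given in the sources used here, and no liver without the deletion was analysed here.

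Acute-phase proteins are plasma proteins whose synthesis, mostly in hepatocytes, changes within hours of infection, tissue damage or inflammation. Interleukin 6 and its relatives act through gp130 and the factor STAT3, and interleukin 1 and TNF act through NF-kB and C/EBP factors, to raise the transcription of the positive members. In mouse liver the inducible serum amyloids are among the most responsive of these genes, and their RNA can be made outside the liver by macrophages and fat cells, which is best known for Saa3.

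The macroscopic library held 256 barcodes and 7271368 UMIs (distinct RNA molecules), of which 241 barcodes had at least 1000 UMIs. The early library held 3221 barcodes and 12637053 UMIs, of which 2620 had at least 1000 UMIs. No barcode sequence was shared by the libraries. Xist, which silences an X chromosome in females, had 0 UMIs in macroscopic and 10149 in early barcodes, and the Y-linked Ddx3y had 275 UMIs in macroscopic and 0 in early barcodes, so stage and sex cannot be told apart. With 1 library per stage no test was made, and no value has a replicate behind it. Every interval below is a 95% interval that covers counting error only.

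Barcodes were put in classes by a few marker genes, and a barcode could be in more than 1 class. A hepatocyte barcode had at least 0.5% of its UMIs from Alb, the albumin gene. These were split at 0.05% of UMIs from Malat1, a noncoding RNA that stays in the nucleus, into barcodes with Malat1 and barcodes below the limit. In the macroscopic library 58 hepatocyte barcodes lay below the limit and 45 had Malat1, and in the early library the numbers were 4 and 63. The barcodes below the limit had a median of 0.22% mitochondrial UMIs in the macroscopic library, against 7.59% in those with Malat1. The 4 early ones had a median of 93.5% mitochondrial UMIs and are not used further. The macroscopic hepatocyte barcodes with Malat1 were deep, with a median of 107248 UMIs, against 16074 in the early ones, and no doublet caller was run.

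The other early classes were duct (Krt19 and Krt7 together at least 2 UMIs, 101 barcodes), Kupffer (Clec4f, Cd5l and Marco together at least 3, 1932 barcodes), other macrophage (Retnla, Alox15 and F13a1 together at least 3, 45 barcodes) and neutrophil (S100a8 and S100a9 at least 1% of UMIs, 33 barcodes). In the macroscopic library these 4 rules took 1, 4, 1 and 1 barcodes, too few to describe. T cell barcodes (Cd3d, Cd3e and Cd3g together at least 2) served as a class that should lack the 9 genes, with 20 macroscopic and 78 early barcodes. Markers that the rules did not use were compared between the classes. The 8 hepatocyte markers (such as Ttr and Apoa1) summed to 42655 CPM in macroscopic hepatocyte barcodes below the Malat1 limit, 29733 in macroscopic and 31566 in early hepatocyte barcodes with Malat1, and 1048 in early Kupffer barcodes. CPM is the number of a gene's UMIs for each 1000000 UMIs of the class. The 8 duct markers (such as Epcam and Sox9) summed to 34131 CPM in early duct barcodes and 7314 CPM in early hepatocyte barcodes with Malat1, and 10 early barcodes met both rules. Those 10 had 0 UMIs of each of the 9 genes other than Lcn2, and they stay in the early hepatocyte and duct sums. The macrophage classes share 25 barcodes. The 8 Kupffer markers (such as Timd4 and Vsig4) summed to 7789 CPM in the 20 barcodes that met the other macrophage rule alone, 19640 CPM in the 25 and 14878 CPM in the 1907 other Kupffer barcodes. The 8 macrophage check markers (such as Lyz2 and Fn1) summed to 50969, 52937 and 8731 CPM in the same order. Of the 8 neutrophil markers, Ly6g, Camp and Ngp were at 0 in the neutrophil barcodes.

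Saa1 to Saa4 encode serum amyloid A proteins and lie together on chromosome 7 of GRCm38 (positions from GENCODE M21). Saa1 (46740497 to 46742980, minus strand) and Saa2 (46751790 to 46754313, plus strand) encode the inducible forms carried by high-density lipoprotein, Saa3 (46711998 to 46715700, minus strand) a form known in the mouse from macrophages and other cells outside the liver, and Saa4 (46727998 to 46732603, minus strand) the constitutive form. No annotated gene overlaps any of the 9 genes. The stretches upstream of Saa1, Saa2 and Saa3 are shown because of where their molecules lay. Saa1 and Saa2 were high in the same macroscopic hepatocyte barcodes, while most Saa3 of the early library lay in macrophage barcodes. In the macroscopic library Saa3 had 154 UMIs in the 103 hepatocyte barcodes and 0 in the 4 Kupffer and 1 other macrophage barcodes. Each is 200 bases long, from 250 to 51 bases before the RefSeq start of the gene, at chr7:46743031-46743230 (minus strand) for Saa1, chr7:46751583-46751782 (plus strand) for Saa2 and chr7:46715727-46715926 (minus strand) for Saa3, from RefSeq on GRCm38.p6 and written 5′ to 3′ along the gene. Capitals mark a match, on the other strand, to the C/EBP motif TTNNGNAAT.
Saa1: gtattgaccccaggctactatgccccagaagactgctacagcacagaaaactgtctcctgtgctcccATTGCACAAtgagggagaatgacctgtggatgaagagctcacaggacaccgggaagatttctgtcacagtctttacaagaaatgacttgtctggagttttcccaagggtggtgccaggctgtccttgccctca
Saa2: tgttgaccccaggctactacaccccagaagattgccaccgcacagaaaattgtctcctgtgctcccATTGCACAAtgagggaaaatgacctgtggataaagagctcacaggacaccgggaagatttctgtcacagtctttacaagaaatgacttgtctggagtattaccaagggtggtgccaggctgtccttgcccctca
Saa3: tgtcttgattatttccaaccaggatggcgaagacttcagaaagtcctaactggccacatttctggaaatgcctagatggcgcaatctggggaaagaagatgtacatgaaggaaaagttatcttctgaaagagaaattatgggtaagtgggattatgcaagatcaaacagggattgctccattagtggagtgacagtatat

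The Saa1 and Saa2 stretches were 93.5% identical, and Saa3 was 49.1% identical to Saa1 and 45.8% to Saa2. The capitals begin 183 bases before the start in Saa1 and 184 in Saa2. The motifs searched, on both strands, were TTNNGNAAT, the core CTGGGAA of the interleukin 6 element and the NF-kB consensus. They were present in this order in 8.68%, 7.22% and 5.7% of the 32817 upstream stretches of the same length. Among the 8 of 9 members with an upstream stretch in the table, matches were found in Saa1, Saa2 and Orm2 only, the last an ATTTCCCAA beginning 109 bases before the start. The absence of a match says only that these letters are not in the stretch.

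Saa1 and Saa2 were present in macroscopic hepatocyte barcodes and nearly absent from early ones. Saa1 had 530 UMIs in the 45 macroscopic hepatocyte barcodes with Malat1, or 137 CPM (125 to 149), against 2 UMIs in the 63 early ones, or 1.88 CPM. The ratio was 72.8 with a wide interval of 20 to 602 because of the 2 early UMIs. Saa2 had 306 UMIs, or 79.0 CPM (70.4 to 88.4), in the macroscopic barcodes and 1 UMI, or 0.94 CPM, in the early ones, a ratio of 84.0 (15.0 to 3330). Neither gene was high across the class. Saa1 had a UMI in 18 of 45 macroscopic barcodes (40.0%; 25.7 to 55.7) and in 2 of 63 early ones. Per barcode, Saa1 lay between 0 and 1484 CPM in the macroscopic library, with a median of 0.

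A few barcodes carried most of these molecules. The 5 macroscopic barcodes with the most Saa1 held 89.8% of its UMIs, and 1 barcode held 175 of the 530. For Saa2, which had a UMI in 11 of 45 barcodes (24.4%), 1 barcode held 150 of the 306 UMIs. Without the barcode with the most UMIs in each sum, the log2 ratio of Saa2 was 3.83, against 6.39 with it. At an equal depth of 1000 UMIs per barcode the expected share of barcodes with Saa1 was 8.51% in the macroscopic and 0.13% in the early hepatocyte barcodes with Malat1. In T cell barcodes Saa1 had 0 UMIs in both libraries (median depths 7641 UMIs macroscopic and 2656 early), which allows up to 15.0% of the 20 macroscopic and 3.85% of the 78 early barcodes to hold a UMI at these depths (a floor of 3 barcodes).

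Saa1 and Saa2 share much of their sequence. Their main transcripts were 93.9% identical, and 92.4% over the last 300 bases, where a library of 3' ends is read. Of the 512 stretches of 98 bases (the read length) in Saa1, 2 occur exactly in Saa2, and the sources used here do not say how reads that match both genes were counted. In macroscopic hepatocyte barcodes with Malat1, 9 barcodes held both genes, 9 held Saa1 alone and 2 held Saa2 alone. Pearson's r of log2 levels was 0.72 across the 58 barcodes below the Malat1 limit and 0.76 across these 45, which come from 1 library.

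Saa3 followed another pattern in the early library, with most of its molecules in macrophage barcodes. It had 2135 UMIs in the 45 other macrophage barcodes, or 3809 CPM (3649 to 3974), against 2228 UMIs in the 1932 Kupffer barcodes, or 321 CPM (308 to 334). The ratio was 11.9, with 25 barcodes in both sums, and without them it was 10.8 (7.33 to 15.5). Of the 9 genes 2 were measured in this comparison, meaning at least 10 CPM in 1 sum and at least 20 UMIs in both together. Saa3 was 2-fold or more higher, as were 8.63% of the 8450 genes measured, and 16% of them were 2-fold or more lower. The other measured member was Lcn2, with 0 UMIs in other macrophage and 73 in Kupffer barcodes.

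The 2 macrophage rules overlap, and the overlap held most of the Saa3. In 25 barcodes that met both rules Saa3 had 2096 UMIs, or 5511 CPM (5278 to 5753), which is 88.0% of the Saa3 UMIs of the kept early barcodes. Of these 25, 21 had Saa3, and over all 25 the median was 31 UMIs and the highest 346. The 20 barcodes that met the other macrophage rule alone had 39 UMIs (216 CPM; 154 to 296), and 5 of them had any. In the 1907 Kupffer barcodes outside the overlap Saa3 had 132 UMIs (20.1 CPM; 16.8 to 23.8), 91 of them in 1 barcode, and 14 barcodes (0.734%) had any. The expected shares at 1000 UMIs were 68.3% in the overlap, 18.4% in other macrophage barcodes alone and 0.362% in Kupffer barcodes alone. Of 78 early T cell barcodes 1 had a Saa3 UMI (1.28%). The overlap barcodes were the deepest, with a median of 15635 UMIs, against 9346 in the other macrophage barcodes alone and 2519 in the Kupffer barcodes alone. Whether depth or barcodes with more than 1 cell have a part in this was not tested.

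**Figure D1:**
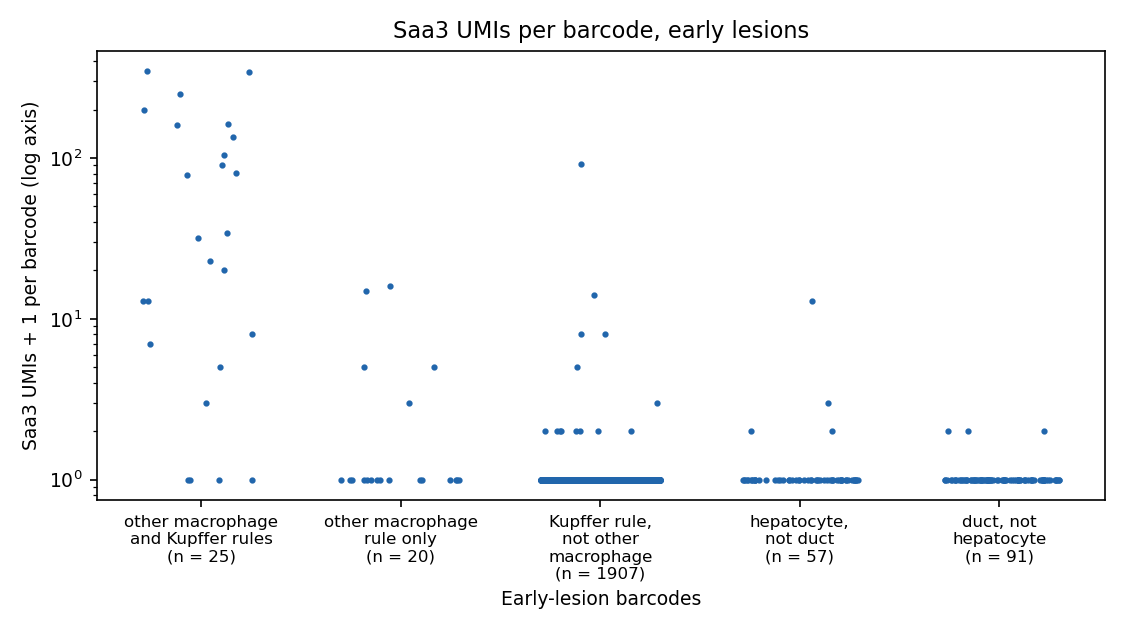
Saa3 UMIs plus 1 per early barcode (vertical, log axis) in 5 sets of barcodes, 1 point per barcode. The 25 barcodes that met both macrophage rules reach 346 UMIs, while nearly all of the 1907 Kupffer barcodes outside the overlap sit at 0.

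Counting barcodes by their Saa3 UMIs shows how uneven it was. Of the 25 overlap barcodes, 8 had at least 100 UMIs, 9 had 10 to 99, 4 had 1 to 9 and 4 had none. Of the 1907 Kupffer barcodes outside the overlap, 2 had 10 or more and 1893 had none. Among the genes of the rule, Saa3 was present in each of the 11 barcodes with at least 3 UMIs of Alox15, a lipoxygenase of resident peritoneal-type and alternatively activated macrophages in the mouse, at 6431 CPM. It stood at 6412 CPM in the 13 barcodes with at least 3 UMIs of Retnla, a secreted product of alternatively activated macrophages, and at 2842 CPM in the 37 with at least 3 of F13a1, the A subunit of clotting factor XIII. The 8 early barcodes with a rule sum of exactly 3 had 332 CPM and the 13 with a sum of 2, just outside, had 85.7 CPM. Over 9 class and library sums (3951 genes with at least 100 CPM in 1), the genes most like Saa3 by Pearson's r were AC168977.1 (0.981), Lyve1 (0.958), Clec10a (0.956), Cbr2 (0.952) and Retnla (0.951), the last being a gene of the rule.

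In hepatocyte barcodes Saa3 was low, and its ratio between stages was within counting error. It had 90 UMIs, or 23.2 CPM (18.7 to 28.6), in macroscopic barcodes with Malat1 against 16 UMIs, or 15.0 CPM (8.6 to 24.4), in early ones. The ratio of 1.54 had an interval of 0.901 to 2.82. Of the macroscopic barcodes with Malat1, 9 held both Saa1 and Saa3, 9 held Saa1 alone and 2 held Saa3 alone. These are the same counts as for Saa1 and Saa2. Pearson's r of the log2 levels of Saa1 and Saa3 in these barcodes was 0.40. Of the 16 early UMIs 12 lay in 1 barcode, and without the top barcode of each sum the log2 ratio was 2.12, against 0.63 with it. The 8 Kupffer check markers summed to 5.94 CPM in the macroscopic barcodes (3 of 8 above 0, with Timd4, Vsig4, Adgre1, Cd163 and Folr2 at 0) and 44.2 CPM in the early ones (7 of 8, with Timd4 at 0). The 8 macrophage check markers, Fn1 among them, summed to 669 CPM in the macroscopic barcodes (Adgre1 at 0) and 546 CPM in the early ones (Ccr2 at 0). These sums were not split by gene, so how much of them is macrophage RNA cannot be told. The part of the check markers in the Saa3 values was not tested. Early hepatocyte barcodes had 14.9 CPM of Saa3, which was 21.6-fold lower than in Kupffer barcodes. That difference rests on the overlap barcodes: with barcodes of more than 1 class left out, the values were 17.1 CPM in hepatocyte and 20.4 CPM in Kupffer barcodes.

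Saa4 was lower in the macroscopic barcodes, by less than 2-fold. It had 149 UMIs in macroscopic hepatocyte barcodes with Malat1, or 38.5 CPM (32.5 to 45.2), against 61 UMIs in early ones, or 57.4 CPM (43.9 to 73.7). The ratio was 0.671 (0.495 to 0.919), which is 1.49-fold lower. Saa4 was spread more evenly than Saa1, with a UMI in 27 of 45 macroscopic (60.0%) and 25 of 63 early barcodes (39.7%), and at 1000 UMIs the expected shares were 2.7% and 4.08%. With a looser hepatocyte limit of 0.2% of UMIs from Alb the direction turned, to a log2 ratio of 0.31. Early T cell and other macrophage barcodes had 0 UMIs of Saa4.

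The orosomucoids, or alpha-1-acid glycoproteins, bind drugs and dampen leukocyte activity, and their genes lie on chromosome 4 (Orm1 at 63344560 to 63348163 and Orm2 at 63362449 to 63365878, both plus strand). Orm1 had 1546 UMIs in macroscopic hepatocyte barcodes with Malat1, or 399 CPM (380 to 420), against 74 UMIs in early ones, or 69.6 CPM (54.6 to 87.4). The ratio was 5.74 (4.54 to 7.35). Orm1 had a UMI in 36 of 45 macroscopic barcodes (80.0%; 65.4 to 90.4) and in 13 of 63 early ones (20.6%; 11.5 to 32.7). At 1000 UMIs the expected shares were 21.6% and 4.21%. Orm2 had 231 UMIs (59.7 CPM; 52.2 to 67.9) against 2 UMIs (1.88 CPM), a ratio of 31.7 (8.68 to 263), but 159 of the 231 lay in 1 barcode. Without the top barcode of each sum its log2 ratio was 4.31, against 4.99 with it.

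The last 300 bases of the Orm1 and Orm2 transcripts were 97.7% identical, and 51 of 678 stretches of 98 bases occur in both. The sources used here do not say how reads that match both genes were counted, so the level of each and the split between them are uncertain. In the 58 macroscopic barcodes below the Malat1 limit 5 of the 19 with Saa1 lacked Orm1, and Pearson's r of the log2 levels of both was 0.46. Each of the 15 macroscopic barcodes with Malat1 that had Orm2 also had Orm1, while 21 had Orm1 alone. All 18 of those with Saa1 had Orm1 as well, and a further 18 had Orm1 without Saa1. The 18 with Saa1 all had Lcn2 too, which 44 of the 45 held, and 17 of them had Itih4. Over these 45 barcodes r was 0.70 for Saa1 and Orm1 and 0.72 for Saa1 and Orm2. Against the total UMIs of the barcode r was 0.14 for Saa1, 0.16 for Orm1 and 0.33 for Orm2. Spearman's rank correlation of CPM with total UMIs was 0.33, 0.13 and 0.44 in the same order. Barcodes of 1 library share its preparation, and at low counts r depends on depth.

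**Figure D2:**
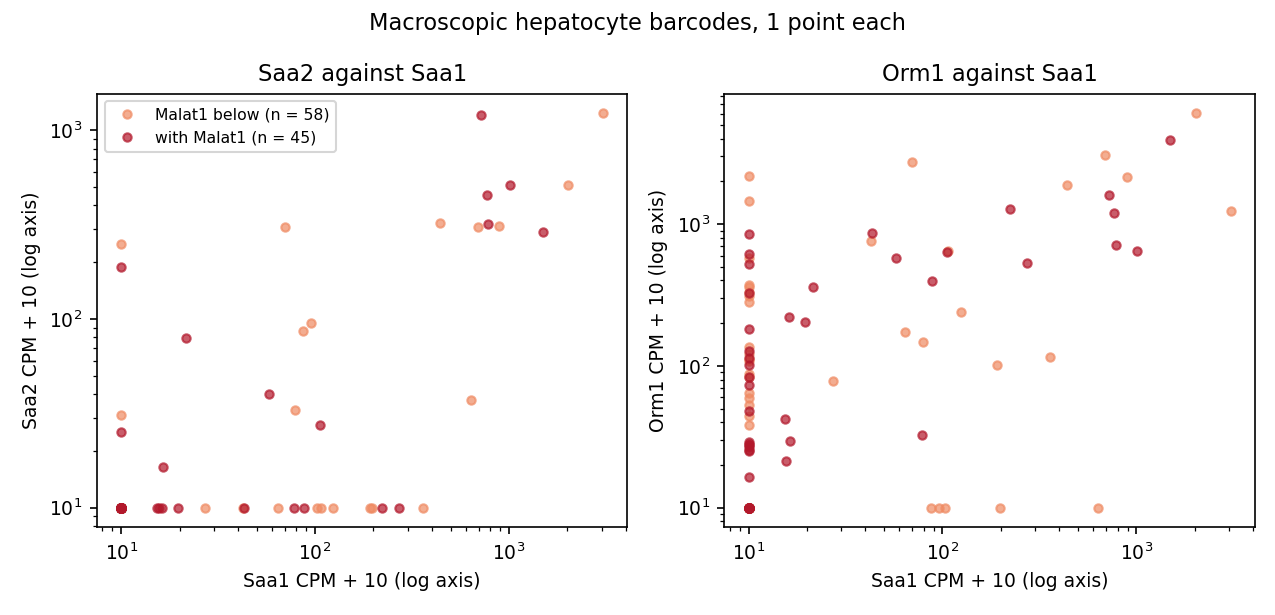
CPM plus 10 of Saa2 (left) and Orm1 (right) against Saa1 in macroscopic hepatocyte barcodes (log axes), 1 point per barcode, split by Malat1. Every barcode with Malat1 that has Saa1 also has Orm1, which 36 of the 45 hold. Of the 18 with Saa1, 9 have Saa2.

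Lcn2 encodes lipocalin 2, which binds the iron carriers that bacteria secrete. Its gene lies on chromosome 2 (32384633 to 32388252, minus strand). It was present in nearly every epithelial barcode and higher in the macroscopic ones. Lcn2 had 9675 UMIs in macroscopic hepatocyte barcodes with Malat1, or 2498 CPM (2449 to 2549), against 1046 UMIs in early ones, or 984 CPM (925 to 1045), a ratio of 2.54 (2.38 to 2.71). It had a UMI in 44 of 45 macroscopic (97.8%) and 55 of 63 early barcodes (87.3%). Per barcode the median was 1416 CPM (at most 6063) in the macroscopic and 685 CPM (at most 2204) in the early barcodes, and the ranges overlap. At 1000 UMIs the expected shares were 70.0% and 47.3%.

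In the early library the levels of Lcn2 in duct and hepatocyte barcodes were within counting error of each other, which held for no other of the 5 members measured there. Duct barcodes had 1557 UMIs, or 1034 CPM (983 to 1087), against 972 CPM in hepatocyte barcodes, a ratio of 1.06. The 10 barcodes that met both rules had 546 CPM (425 to 691). The 91 duct barcodes outside the overlap had 1079 CPM with a UMI in 85, and the 57 hepatocyte barcodes outside it had 1029 CPM, a ratio of 1.05 (0.966 to 1.14). The protein is also called neutrophil gelatinase-associated lipocalin, and neutrophil barcodes had 35 UMIs, or 629 CPM (438 to 875), in 9 of 33 barcodes (27.3%) at a median depth of 1538 UMIs. The 8 neutrophil check markers summed to 5018 CPM there, against 1.29 CPM in macroscopic hepatocyte barcodes with Malat1 (7 of 8 at 0), 1.88 CPM in early ones (6 of 8 at 0) and 3.98 CPM in duct barcodes (6 of 8 at 0). Kupffer barcodes had 73 UMIs (10.5 CPM), 55 of them in 1 barcode, and T cell barcodes had 1 UMI each in 3 of 20 macroscopic barcodes (15.0%) and in 0 of 78 early ones, which allows up to 3.85% with a UMI. The order of Lcn2 levels was thus hepatocyte below the Malat1 limit, hepatocyte with Malat1 (both macroscopic), early duct and early hepatocyte without a difference beyond counting error, neutrophil, macroscopic T cell (19.2 CPM, 3 UMIs) and Kupffer, the last pair within counting error (3.96 to 56.2 and 8.24 to 13.2), with 0 UMIs in other macrophage and early T cell barcodes. The genes most like Lcn2 over the 9 sums were Cxcl1 and Cxcl10 (both r = 0.958), Adrm1 (0.932), Pter (0.928) and Ambp (0.928).

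Itih3 and Itih4 encode heavy chains of the inter-alpha-trypsin inhibitor family, which bind hyaluronan or are cleaved in plasma, and they are neighbours on chromosome 14 (Itih3 at 30908572 to 30923760, minus strand, and Itih4 at 30886476 to 30902353, plus strand). Neither was higher in macroscopic lesions. Itih3 had 696 UMIs, or 180 CPM (167 to 194), in macroscopic hepatocyte barcodes with Malat1 against 367 UMIs, or 345 CPM (311 to 382), in early ones, which is 1.92-fold lower (1.69 to 2.18). Itih4 had 3464 UMIs, or 895 CPM (865 to 925), against 996 UMIs, or 937 CPM (879 to 997), a ratio of 0.955 (0.89 to 1.03). With a looser hepatocyte limit of 0.2% of UMIs from Alb, the log2 ratios were -0.04 for Itih3 and 0.82 for Itih4, against -0.94 and -0.07. Both were broad: Itih4 had a UMI in 42 of 45 macroscopic and 46 of 63 early barcodes, and Itih3 in 36 of 45 and 47 of 63. The 10 early hepatocyte barcodes that also met the duct rule had 0 UMIs of either gene. The 57 early hepatocyte barcodes outside that overlap, with or without Malat1, had Itih4 in 48 (1051 CPM) and Itih3 in 50 (392 CPM). Within macroscopic barcodes with Malat1, r of log2 levels was 0.66 for Itih3 and Itih4. For Itih4 and the remaining members it ran from 0.10 (Saa3) to 0.43 (Saa4), with 0.15 for Saa1. Against the total UMIs of the barcode r was 0.56 for Itih3 and 0.36 for Itih4, and the part of depth was not tested.

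Counted together, 5 of the 9 genes (Saa1, Saa2, Orm1, Orm2 and Lcn2) were 2-fold or more higher in macroscopic than in early hepatocyte barcodes with Malat1, and 0 were 2-fold or more lower. Of the 9173 genes measured, 10.1% were higher and 14.8% lower by that rule. The median log2 ratio was 1.34 over the 9 genes and -0.13 over the genes measured. With median-of-ratios scaling, which takes that median of -0.13 out of the ratios, the split of genes called was 1167 higher and 1061 lower, against 927 and 1357 in CPM. The count of 5 became 6, with Saa3 added, under 4 of the 14 alternatives tried.

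**Figure D3:**
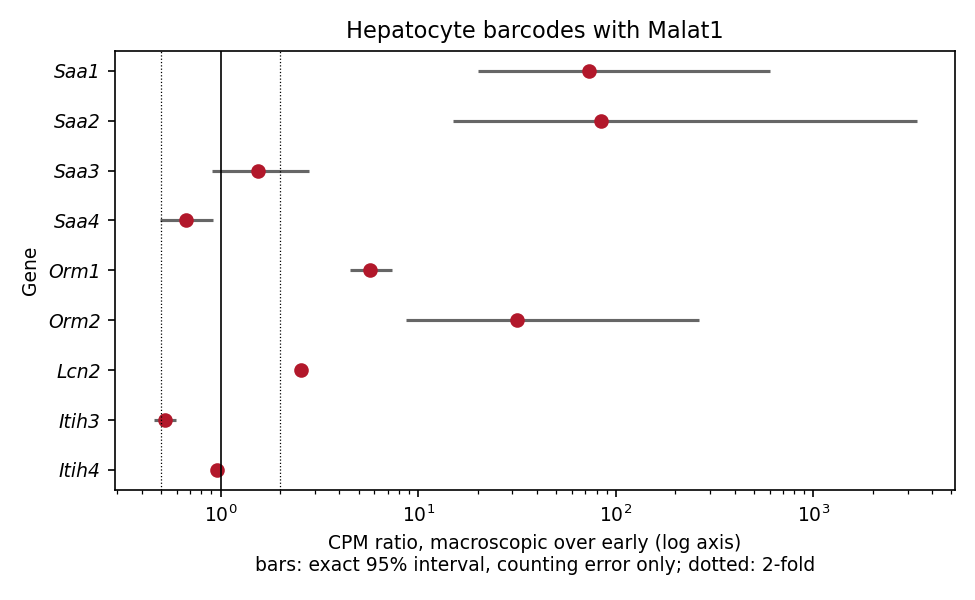
Ratio of CPM, macroscopic over early, in hepatocyte barcodes with Malat1 (log axis), with the exact 95% interval of counting error, for each of the 9 genes. Saa1, Saa2, Orm1, Orm2 and Lcn2 lie beyond the dotted 2-fold line on the right, and Itih3 lies just inside the one on the left.

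**Figure D4:**
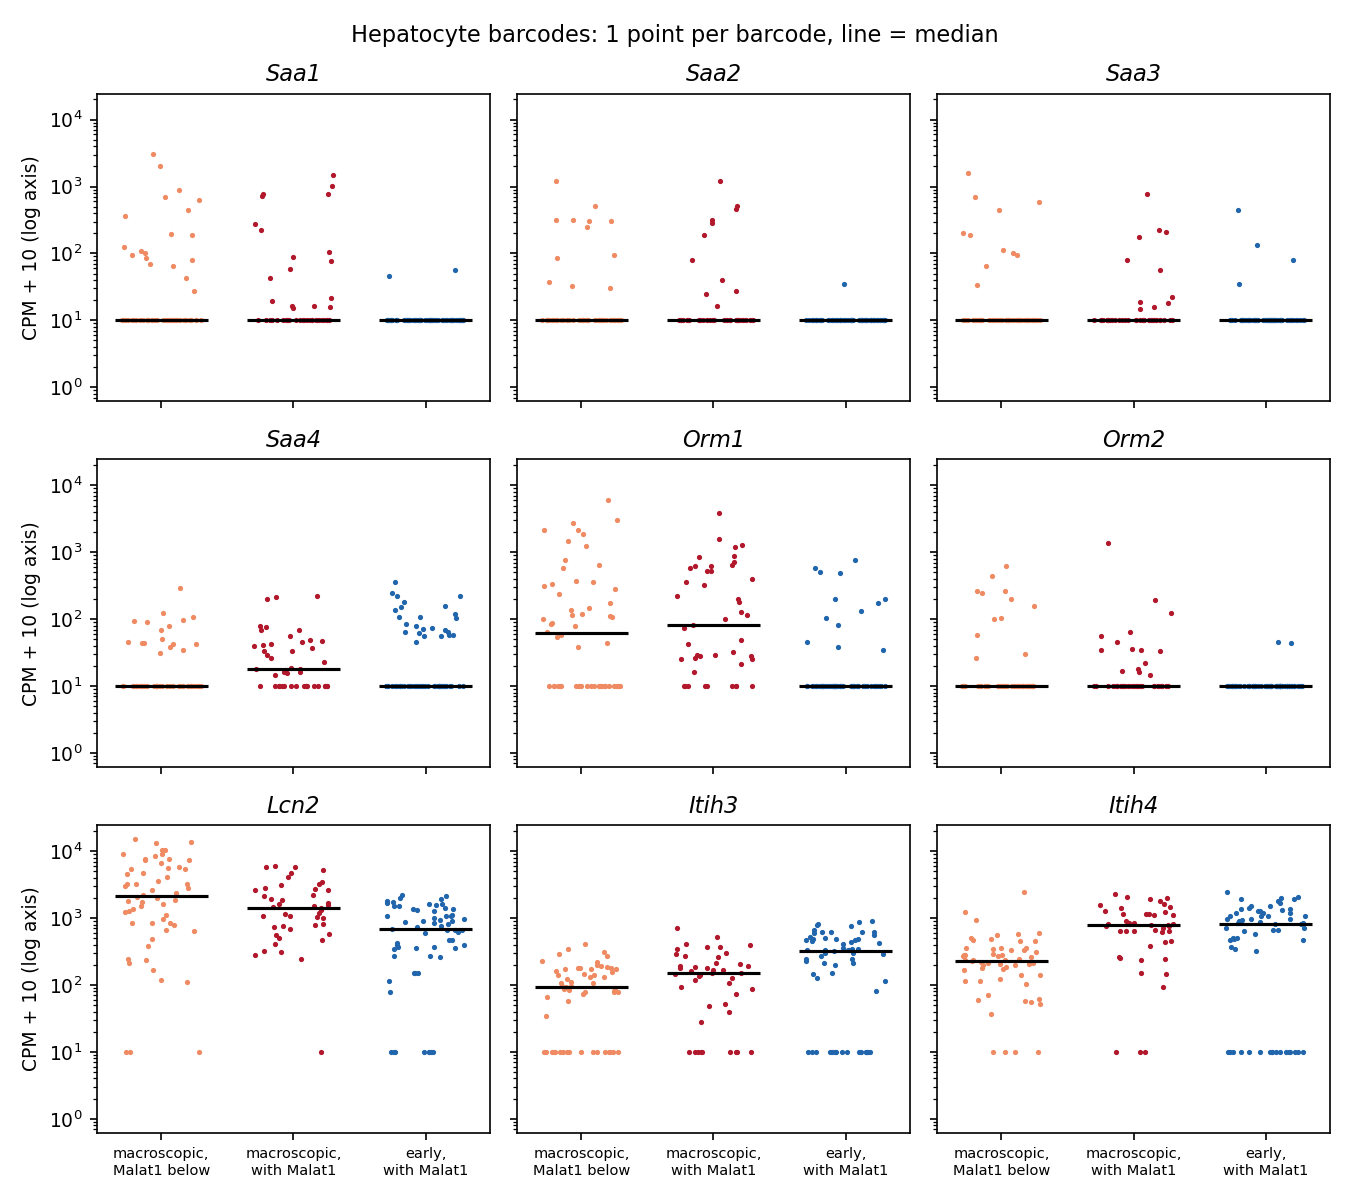
CPM plus 10 per hepatocyte barcode (log axis) for the 9 genes, in macroscopic barcodes below the Malat1 limit (n = 58), macroscopic barcodes with Malat1 (n = 45) and early barcodes with Malat1 (n = 63), with the median as a line. Saa1, Saa2 and Orm2 are absent from most barcodes of each set and high in a few macroscopic ones, whereas Lcn2 and Itih4 are present in most.

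The macroscopic hepatocyte barcodes below the Malat1 limit held the same inducible genes. Saa1 had 118 CPM (101 to 138) below the limit and 137 CPM in barcodes with Malat1, a ratio of 0.863 (0.72 to 1.03). Orm1 had 506 CPM (469 to 545) below it against 399, a ratio of 1.27 (1.16 to 1.39), and Lcn2 had 4475 CPM (4365 to 4588) against 2498, a ratio of 1.79 (1.73 to 1.85). Saa3 had 45.8 CPM (35.3 to 58.5) against 23.2, a ratio of 1.97 (1.41 to 2.75). The 5 barcodes with the most Saa3 held 55 of its 64 UMIs below the limit and 83 of 90 in barcodes with Malat1. Kupffer check markers summed to 39.4 CPM below the limit and 5.94 CPM with Malat1, and macrophage check markers to 125 and 669 CPM. Their part in the Saa3 values was not tested. The median gene of this comparison had a log2 ratio of -0.81, and 7 of the 9 members lie above it.

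The inhibitor heavy chains were lower below the limit. Itih4 had 248 CPM (222 to 275) against 895 in barcodes with Malat1, which is 3.61-fold lower (3.23 to 4.05), and Itih3 had 101 CPM against 180, 1.78-fold lower (1.48 to 2.15), a log2 ratio of -0.83 that is close to that of the median gene. Saa2, Saa4 and Orm2 had 47.9, 26.5 and 53.7 CPM below the limit and 79.0, 38.5 and 59.7 CPM in barcodes with Malat1. Of the 9 genes 0 were 2-fold or more higher, as were 1.66% of the 8430 measured, and 1, Itih4, was 2-fold or more lower, as were 46.2% of them. These counts depend on the scale. Median-of-ratios scaling took a median shift of -0.79 out of the ratios, changed the split over the genes measured to 2079 higher and 2648 lower, against 140 and 3894 in CPM, and put Saa3, Orm1 and Lcn2 past 2-fold. At 1000 UMIs the expected share of barcodes with Saa1 was 8.82% below the limit and 8.51% in barcodes with Malat1, and that with Itih4 was 22.8% and 51.7%.

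Within the early library the genes divided by cell class. Of the 6 members measured in early hepatocyte and Kupffer barcodes, 5 were 2-fold or more higher in hepatocyte barcodes, as were 29.5% of the 9800 genes measured. Saa4 had 56.7 CPM against 0.864 CPM in Kupffer barcodes (65.6-fold), Orm1 69.7 against 4.03 CPM (17.3-fold), and Lcn2 972 against 10.5 CPM (92.5-fold). Itih3 had 346 CPM against 3.31 CPM (104-fold) and Itih4 had 927 against 5.04 CPM (184-fold). Without the 2 barcodes in both sums Itih4 was 269-fold higher (179 to 421), and the ratios of the other 5 members stayed within the intervals of the sums without them. The remaining member, Saa3, was lower, as were 22.3% of the genes measured. That call rests on the 25 Kupffer barcodes that also met the other macrophage rule. Kupffer barcodes outside that overlap had 20.1 CPM of Saa3, against 14.9 CPM in hepatocyte barcodes. Median-of-ratios scaling changed the split here to 2421 higher and 2637 lower, against 2893 and 2190 in CPM, with 5 members higher as before.

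Against hepatocyte barcodes, early duct barcodes had little of the members other than Lcn2. Of 5 members measured 0 were 2-fold or more higher, as were 24% of the 10052 genes measured, and 4 were 2-fold or more lower, as were 10% of them. Itih4 had 9.3 CPM in duct and 927 CPM in hepatocyte barcodes (99.8-fold lower). Saa4, Orm1 and Itih3 had 1 UMI each in duct barcodes. Without the 10 barcodes in both sums, Itih4 was 104-fold lower (61.4 to 190), and the ratios of Saa4, Orm1 and Itih3 were 0.0113 (0.000281 to 0.0653), 0.00918 (0.000229 to 0.0527) and 0.00185 (4.67e-05 to 0.0104). Median-of-ratios scaling took a median shift of 0.41 out of the ratios, the split over the genes measured becoming 1555 higher and 1497 lower, against 2409 and 1008 in CPM, and Lcn2 remained within 2-fold.

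**Figure D5:**
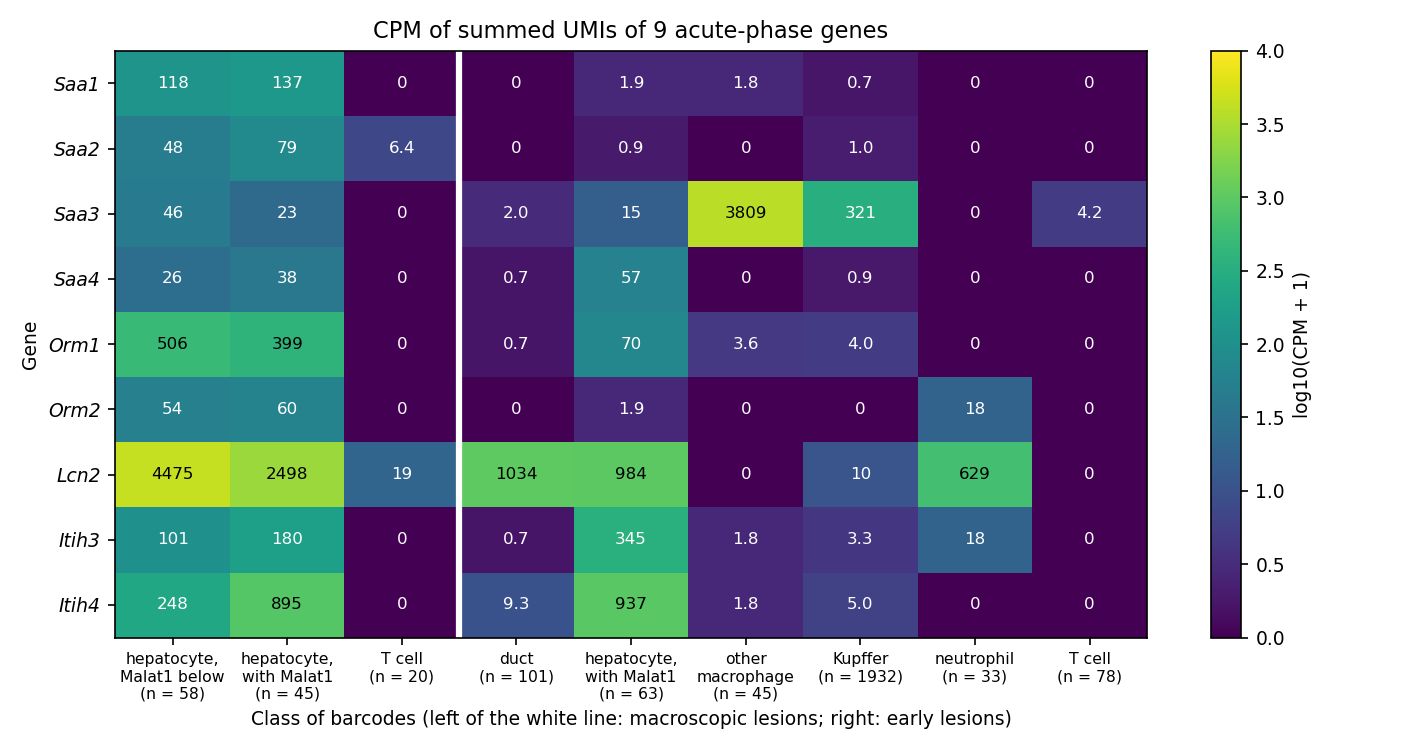
CPM of summed UMIs for the 9 genes (rows) in the classes set by a rule with at least 10 barcodes (columns), macroscopic left and early right of the white line. The value is printed and the colour is on a log scale. Barcodes of no class (112 macroscopic, 407 early) are not shown. Saa3 stands at 3809 CPM in early other macrophage barcodes, while the other members stand in hepatocyte columns and, for Lcn2, also in duct and neutrophil columns.

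Other genes of the acute-phase response did not share 1 direction between the macroscopic and the early hepatocyte barcodes with Malat1. Of 33 further positive acute-phase genes 32 were measured, 7 were 2-fold or more higher and 5 lower, with a median log2 ratio of -0.30. Over the 9173 genes measured these were 10.1% higher, 14.8% lower and a median of -0.13. The share lower was thus near that of the genes at large, and the share higher was above it. Serpina3k, a serine protease inhibitor, had 246 CPM in macroscopic and 21.6 CPM in early barcodes (11.4-fold; 7.54 to 18.0). Hamp, which encodes the iron hormone hepcidin and is itself induced by interleukin 6, had 24.8 CPM against 2133 CPM, 86.0-fold lower (70.1 to 107). Apcs, serum amyloid P, had 64.3 CPM against 241 CPM, 3.74-fold lower (3.13 to 4.48). A2m had 0 UMIs in both sums.

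Negative acute-phase genes are those whose synthesis falls in the response. Of 16 listed 14 were measured, 1 was 2-fold or more higher and 3 lower, with a median log2 ratio of -0.25, shares near those of the genes at large. Fetub, a fetuin, had 256 CPM against 95 CPM (2.7-fold; 2.2 to 3.34), and Alb, the gene of the hepatocyte rule, had 34849 CPM against 20471 CPM. Pon1, a paraoxonase carried by high-density lipoprotein, had 1.55 CPM against 23.5 CPM (15.2-fold lower; 6.08 to 45.2). Serpina7, which binds thyroid hormone, had 44.7 CPM against 193 CPM (4.32-fold lower; 3.51 to 5.31).

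Genes that signal to the 9 are cytokines, their receptors and transcription factors, and of these the cytokines were sparse in hepatocyte barcodes, with 2 of 11 measured. Lif, a gp130 cytokine, had 57 UMIs in macroscopic barcodes and 1 in early ones, a ratio of 15.7 (2.7 to 629), and Il18 had 2.07 CPM against 14.1 CPM (6.83-fold lower; 2.72 to 18.6). Of 17 receptor genes 11 were measured, 2 higher and 2 lower (10.1% and 14.8% over all genes measured), and nothing is read from counts this small. The 17 include Fpr2, Scarb1, Slc22a17 and Lrp2, listed as receptors of serum amyloid A or lipocalin 2 and not of cytokines. Of these Scarb1 is among the 11. Il1rap, the co-receptor of interleukin 1, had 112 CPM against 22.6 CPM (4.94-fold; 3.28 to 7.8), whereas Il1r1, the receptor chain that binds it, had 4.13 CPM against 18.8 CPM (4.55-fold lower; 2.24 to 9.39). Osmr, the oncostatin M receptor, had 11.9 CPM against 4.7 CPM (2.53-fold; 1.01 to 8.15), and Il6st, which encodes gp130, had 17.8 CPM against 60.2 CPM (3.38-fold lower; 2.37 to 4.82). Of 15 genes of transcription factors and feedback 14 were measured, 1 higher and 1 lower. Nfkbiz, an inducible partner of NF-kB, had 108 CPM against 16.0 CPM (6.74-fold; 4.16 to 11.7), and Nfkb1, an NF-kB subunit, had 29.7 CPM against 61.1 CPM (2.06-fold lower; 1.49 to 2.81). Zfp36, which speeds the decay of cytokine RNAs, had 225 CPM against 134 CPM, and Cebpb, a C/EBP factor, had 218 CPM against 367 CPM.

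Other cytokines were counted over all classes. Il1b, interleukin 1 beta, had 891 UMIs in the 33 early neutrophil barcodes, or 16024 CPM, against 208 CPM in Kupffer barcodes. Neutrophil barcodes also had the highest Osm (540 CPM on 30 UMIs) and Tnf (504 CPM on 28 UMIs) among classes of at least 10 barcodes. Il6 had 36 UMIs in the 1932 Kupffer barcodes, 5.18 CPM, and 19 in early barcodes of no class. Its receptor chain Il6ra had 145 CPM in Kupffer, 112 CPM in other macrophage and 27.3 CPM in early hepatocyte barcodes with Malat1. Among receptors that bind serum amyloid A, Fpr2 had 252 CPM in neutrophil, 56.0 CPM in Kupffer and 10.7 CPM in other macrophage barcodes, and Scarb1, the lipoprotein receptor of hepatocytes, had 119 CPM in macroscopic and 139 CPM in early hepatocyte barcodes with Malat1. Slc22a17, described as a receptor of lipocalin 2, had 19.0 CPM in Kupffer and 18.6 CPM in duct barcodes.

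The genes whose levels over the 9 sums were most like those of Saa1 were Tff3 (r = 0.993), Ccl20 (0.986), Spp2 (0.980), Apoc2 (0.970) and Ccdc152 (0.965). Tff3, a trefoil peptide, had 697 CPM in macroscopic hepatocyte barcodes below the Malat1 limit, 426 CPM in those with Malat1 and 5.64 CPM in early ones with Malat1. Ccl20, a chemokine, had 121, 129 and 0 CPM in the same order. The sums of 1 library share its preparation and depth, so r is a description.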

How the data were processed

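Each deposited matrix holds unnormalized UMI counts by gene and barcode from Cell Ranger 3.0.2, per the file headers. The submitters' processing notes also name the mm10 build and Seurat 2.3.0 without its role. The sources used here give no gene annotation, barcode filter or counting of reads that match several genes. The libraries are 10x 3' v3, per the labels' protocols, so UMIs count transcript ends and do not scale with gene length.

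UMIs of barcodes with at least 1000 UMIs were summed per class and library (Python 3.11.15, NumPy 2.4.6, SciPy 1.17.1), with no doublet caller and no mitochondrial limit. CPM carries the exact Poisson interval, a CPM ratio the exact conditional binomial interval and a share of barcodes the Clopper-Pearson interval, with 3 counts as the limit of a 0. Ratio intervals are given only where the sums share no barcode. A measured gene had at least 10 CPM in 1 sum and at least 20 UMIs in both together, and a call needed a 2-fold ratio. Where 1 sum had 0 UMIs the ratio is a bound against 3 counts over that sum. The share at 1000 UMIs is the hypergeometric expectation, and no kept barcode was shallower. The ratio code was tested on simulated data.

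The 9 genes, context lists and class rules were chosen with earlier results of these data known. Named are the 9 genes, the genes of each context list with the 2 highest and the 2 lowest ratios (1 of these is not reported here), and those most like Saa1, Saa3 and Lcn2 (Pearson's r of log2 of CPM plus 10). Of the cytokine and receptor genes with at least 20 UMIs in a class, those described by class were picked after their values were seen.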

Additional observations from a re-analysis of the deposited data

Results flagged for a closer look

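Barcodes that met no class rule (112 macroscopic, 407 early) and hepatocyte barcodes with Malat1 had log2 ratios of macroscopic over early lesions of opposite sign for 4 members. These differences were not tested, and the hepatocyte ratios of Saa3 and Itih4 were within counting error of no difference. Saa3 had a log2 ratio of 0.63 in hepatocyte barcodes and -0.96 in barcodes of no class, where it had 35 macroscopic and 95 early UMIs. Saa4 had -0.58 in hepatocyte barcodes and a bound of 3.07 in barcodes of no class, on 18 macroscopic and 0 early UMIs. Itih3 had -0.94 and 2.29 (14 macroscopic and 4 early UMIs in barcodes of no class), and Itih4 had -0.07 and 1.96 (25 and 9 UMIs). The remaining members had ratios above 1 in both kinds of barcode. In barcodes of no class Saa1 had 70 and 0 UMIs (a bound of 32.6-fold) and Saa2 35 and 1 (48.9-fold; 8.22 to 1987). Orm1 was 16.8-fold higher there (9.9 to 30.6) and Lcn2 2.49-fold (2.11 to 2.95). Orm2, with 6 and 0 UMIs, was not measured there. Hepatocyte check markers summed to 6936 CPM in macroscopic and 666 CPM in early barcodes of no class, and their part in these values was not tested.

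Barcodes under 1000 UMIs, which the report leaves out, held UMIs of the 9 genes. There were 43 such UMIs in 15 macroscopic barcodes, 14 of them in 1 barcode, and 24 in 601 early barcodes.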

How the results depend on the processing

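The 7 counts of called members were recomputed under 13 listed alternatives and 2 chosen after seeing the data (leaving out, for each member, the barcode with the most of its UMIs, and leaving out barcodes in both sums), where each applied. They were within 1.5 times the reported count in 81 cases and not in 9. No ratio of a called member changed sign. Members not called could, and Itih4 in other macrophage over Kupffer barcodes, on 1 and 35 UMIs, ranged from -1.51 to 0.58 in log2. Members 2-fold or more lower in macroscopic than in early hepatocyte barcodes numbered 1 (Itih3) with Alb at least 1%, with all hepatocyte barcodes and with barcodes of more than 1 class left out, against 0. Members 2-fold or more higher below the Malat1 limit than above it numbered 1 (Saa3) with at most 25% mitochondrial UMIs and 300 genes, with Alb at least 0.2% and with equal weight per barcode, 2 (Saa3 and Lcn2) without the 5 deepest barcodes of each sum, and 3 (Saa3, Orm1 and Lcn2) with median-of-ratios scaling, against 0. Members higher in other macrophage than in Kupffer barcodes numbered 2 (Saa1 on 1 and 5 UMIs, and Saa3) with no filter on low values, against 1. The cause was not tested in these cases. In macroscopic over early hepatocyte barcodes the log2 ratio ranged from 5.56 to 7.09 for Saa1, 3.83 to 7.41 for Saa2, 4.31 to 5.89 for Orm2, 2.33 to 3.3 for Orm1, 1.18 to 1.64 for Lcn2 and 0.22 to 2.37 for Saa3. Saa3 in other macrophage over Kupffer barcodes ranged from 3.35 to 5.08. No paired analysis was possible because each stage has 1 library. In the early hepatocyte sum 1 UMI is 0.94 CPM, so early levels of Saa1, Saa2 and Orm2, on 1 or 2 UMIs, are limited by depth.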
